A study of Lumnitzera littorea with 6 samples.

Results

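The 100 most abundant leaf transcripts of the mangrove *Lumnitzera littorea* held 20.3% ± 0.238 of all counts under salt stress and 14.3% ± 0.105 in CK (SD, n = 3 each). They are 100 of 26139 gene models, of which 18073 passed edgeR's low-count filter. Members were chosen by their mean CPM over all 6 libraries, where CPM is the count of reads scaled to a common library size with TMM factors. The salt stress libraries came from the leaves of 1-year-old seedlings that received 400 mM NaCl for 3 days, and the CK libraries from seedlings of the same age given fresh water. All seedlings had been raised from wild-collected seed in a garden under natural conditions. Each group has 3 libraries, and total counts lay between 16403150 and 19456211 in salt stress and between 16273192 and 19433684 in CK. The labels' protocol speaks of RNA from each plant, but biological replicates are stated only for the treated seedlings, so whether each CK library is a separate plant is not certain. The p-values here measure the spread between these libraries, which may be partly technical.

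In leaves, the reads of a transcriptome are usually concentrated on a small part of the genes. Transcripts for light-harvesting proteins, the small subunit of Rubisco and other parts of photosynthesis are commonly among them, and metallothioneins are another well-known abundant class. Because reads are a fixed total, a transcript that takes a larger share leaves a smaller share to all others even when their amounts stay as they were. The deposited files do not pair the *L. littorea* gene models with gene names, and no annotation was used here, so which member encodes which of these proteins is not given, members are named by their gene model, and the leaf label could not be checked against marker genes. The IDs hold a scaffold and a number, taken here as the order of the gene models along that scaffold. Gene length was not used either, so "abundant" means many reads, and a long transcript gives more reads than a short one at the same number of molecules. In whole leaves, a change in the share of a cell type cannot be told apart from a change of RNA per cell.

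The rule that chose the members used their levels, so the levels are a description. Mean CPM over the 6 libraries ran between 761 and 12728 among the members, with a median of 1126. The lowest count of any member in any library was 4219, far above the low-count filter. The limit of the list fell in a dense part of the ranking. The last members, evm.model.29.112 and evm.model.6.288, had mean CPM of 773 and 761, and the next gene models, evm.model.57.81 and evm.model.8.473, had 757 and 738. The members lie on 54 scaffolds, and scaffold 3 holds 12 of them among its 1014 gene models. None of the 63 *LlMADS* genes is a member (0 of 63), and the most abundant of them, *LlMADS12*, stood at rank 2120 with a mean CPM of 103.

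The members' share of the counts was 20.3%, 19.99% and 20.5% in salt stress replicates 1, 2 and 3, against 14.4%, 14.2% and 14.2% in CK replicates 1, 2 and 3. All salt stress libraries lay above all CK libraries. The difference of the means was 5.99 percentage points (two-sided exact permutation test over libraries, p = 0.1, the smallest that 3 against 3 libraries allow). Most of this difference sat at the top of the ranking. The 10 highest-ranked members gained 2.82 percentage points and ranks 11 to 50 gained 2.78 percentage points, while ranks 51 to 100 gained 0.396 percentage points. Beyond the members, ranks 101 to 200 gained 0.751 percentage points. Ranks 101 to 1000 as a whole held 25.4% ± 0.0488 in salt stress and 25.7% ± 0.0114 in CK (SD, n = 3 each), a difference of -0.257 percentage points. The share that the members gained was matched by lower shares further down, with -3.57 percentage points in ranks 1001 to 5000 and -2.18 percentage points in ranks 5001 to 18073.

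**Figure D1:**
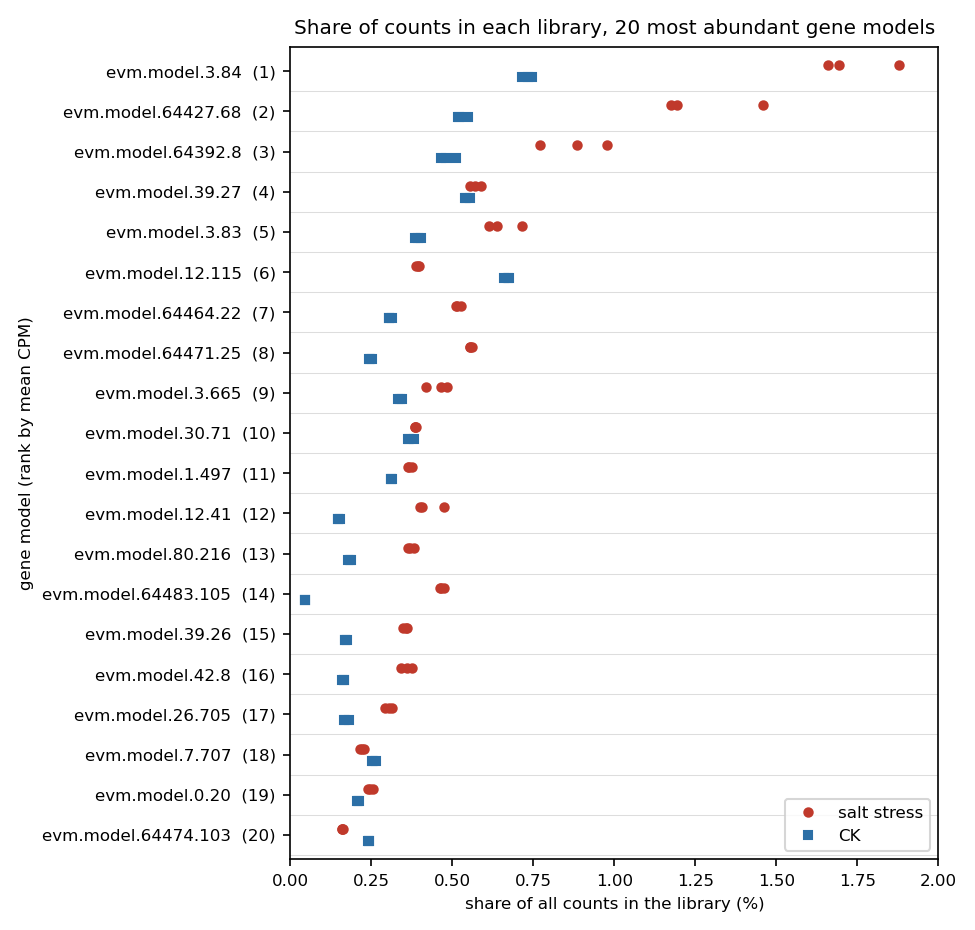
Share of all counts in each library (x axis, %) for the 20 gene models with the highest mean CPM (y axis, rank in brackets), with a red circle for each salt stress library and a blue square for each CK library. The circles of evm.model.3.84 lie between 1.66% and 1.88% and its squares between 0.716% and 0.746%, whereas evm.model.12.115 has its circles to the left of its squares.

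The most abundant gene model in both conditions was evm.model.3.84. It took 1.66%, 1.69% and 1.88% of all counts in the salt stress libraries, against 0.746%, 0.734% and 0.716% in the CK libraries. The groups were far apart, and replicate 3 was the highest salt stress library. Its CPM was 18571 ± 1342 in salt stress and 6884 ± 152.3 in CK (SD, n = 3 each). On the log2 scale the fold change was 1.43 with a standard error of 0.044 (adjusted p = 1.55e-11, quasi-likelihood test of edgeR over all 18073 tested genes). The second, evm.model.64427.68, took 1.18%, 1.19% and 1.46% in salt stress and 0.547%, 0.521% and 0.517% in CK. Here too replicate 3 was the highest salt stress library, and no salt stress library came near the CK range. The log2 fold change was 1.45 with a standard error of 0.11, larger than that of evm.model.3.84 (edgeR adjusted p = 0.00023). The third, evm.model.64392.8, took 0.977%, 0.885% and 0.772% in salt stress and 0.511%, 0.464% and 0.481% in CK. In this gene model replicate 3 was the lowest of the salt stress libraries, still above every CK library. Its log2 fold change, 1.03 with a standard error of 0.10 (edgeR adjusted p = 0.000689), stood at the edge of the fold threshold and was 0.95 without salt stress replicate 1, 0.997 without CK replicate 2 and 0.86 with total counts alone. Together these 3 gene models held 3.90% ± 0.184 of all counts in salt stress and 1.75% ± 0.0512 in CK (SD, n = 3 each).

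Among the other 7 of the 10 highest-ranked members, 6 were higher in salt stress and 1 was lower, each with an edgeR adjusted p under 0.05. The increase was largest for evm.model.64471.25, at 0.560%, 0.553% and 0.556% of the counts in salt stress against 0.253%, 0.242% and 0.247% in CK (log2 fold change 1.35, edgeR adjusted p = 1.34e-34). Its salt stress libraries were almost alike. The gene model evm.model.64464.22 had 0.526%, 0.513% and 0.512% in salt stress and 0.304%, 0.303% and 0.313% in CK, and its log2 fold change of 0.93 stayed below the fold threshold. The log2 fold change of evm.model.3.665 was 0.61, with 0.484%, 0.466% and 0.418% in salt stress and 0.338%, 0.345% and 0.333% in CK. Some of the leading gene models changed little. The share of evm.model.39.27 was 0.590%, 0.570% and 0.555% in salt stress and 0.554%, 0.543% and 0.539% in CK, and that of evm.model.30.71 was 0.387%, 0.386% and 0.384% in salt stress and 0.380%, 0.364% and 0.367% in CK. Their log2 fold changes on the CPM scale were 0.25 and 0.24, about 1.19-fold and 1.18-fold. These increases depended on the scaling, since with total counts alone in place of TMM they were 0.068 for evm.model.39.27 (edgeR adjusted p = 0.0257) and 0.057 for evm.model.30.71, which then missed the threshold (edgeR adjusted p = 0.0552).

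The exception among the leaders was evm.model.12.115, which fell. It took 0.394%, 0.397% and 0.388% of all counts in the salt stress libraries, against 0.660%, 0.672% and 0.675% in the CK libraries. Its CPM was 4184 ± 22.1 in salt stress and 6293 ± 61.7 in CK (SD, n = 3 each), and the log2 fold change was -0.59 with a standard error of 0.026 (edgeR adjusted p = 1.02e-22). It stood at rank 11 in salt stress and at rank 2 in CK. This gene model alone made up 21.6% of all share lost by members.

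Of the 100 members, 70 had a larger share of the counts in salt stress than in CK and 30 a smaller one. The gains summed to 7.28 percentage points and the losses to -1.28 percentage points. The groups overlapped in share for 9 members. Gains, losses and overlap in share were not counted over all tested genes, so these counts have no background. On the CPM scale, 76 members and 8992 of the 18073 tested genes had a log2 fold change above 0. That count is no background for shares. With total counts alone the median log2 fold change was -0.18 over all tested genes and 0.26 over the members. Gains were concentrated, with 8 gene models holding more than 50% of the summed gain and the 3 largest holding 29.99% of it. The 5 largest gains belonged to evm.model.3.84 (1.01 percentage points), evm.model.64427.68 (0.748), evm.model.64483.105 (0.422), evm.model.64392.8 (0.393) and evm.model.64471.25 (0.309). After evm.model.12.115, the largest losses were small. They were -0.0931 percentage points for evm.model.5.305, -0.0913 for evm.model.30.51, -0.0871 for evm.model.33.78 and -0.0802 for evm.model.64474.103.

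**Figure D2:**
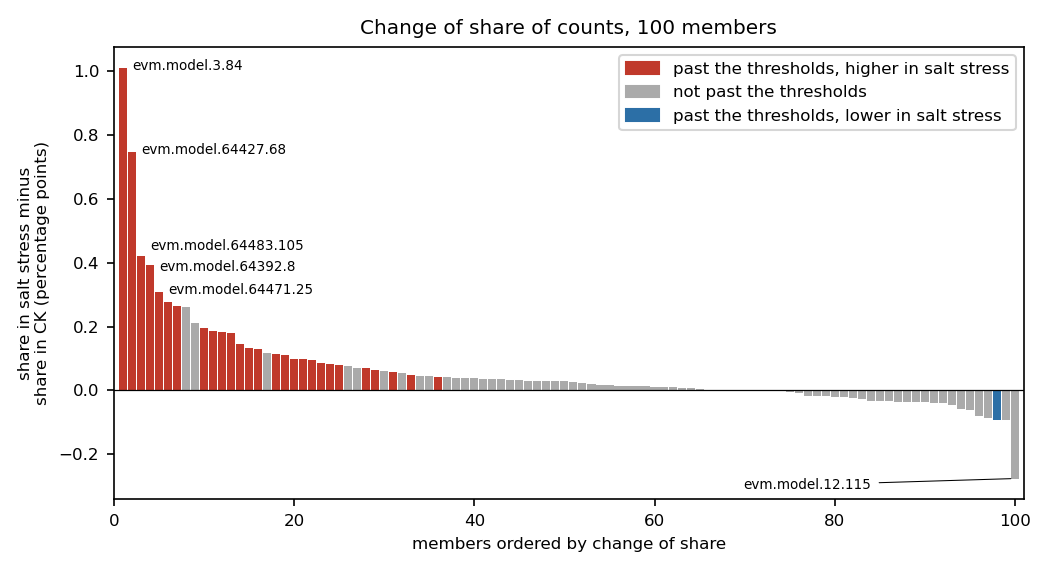
Difference of the mean share of counts, salt stress minus CK (y axis, percentage points), for the 100 members ordered by this difference (x axis), coloured by whether the member passed both thresholds in edgeR. Red bars, the 27 members called higher, fill most of the left side up to 1.01 percentage points, and the single blue bar is evm.model.30.51 at -0.0913.

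A change of share and a change of CPM are not the same measurement, because CPM is scaled by the TMM factors and a share is not. The TMM factors were between 0.934 and 0.946 in salt stress and between 1.06 and 1.07 in CK. With total counts in their place, the median log2 fold change over all tested genes moved to -0.18, and that of the members was 0.26. For 6 members the sign depended on this choice, with more CPM but a smaller share in salt stress, and 5 of them had an adjusted p under 0.05 on the CPM scale. An example chosen after its values were seen is evm.model.64486.14, with 0.198%, 0.195% and 0.186% of the counts in salt stress and 0.199%, 0.193% and 0.192% in CK. Its groups overlapped in share, while its log2 fold change in CPM was 0.16. There were 0 members with less CPM and a larger share.

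The difference between salt stress and CK was tested with the quasi-likelihood method of edgeR, with p-values adjusted over all 18073 tested genes, and a gene was called when its adjusted p was under 0.05 and its log2 fold change above 1 or below -1. Of the 100 members, 27 were called higher, against 12.1% of all tested genes, and 1 was called lower, against 7.12% of all tested genes. The rule treats both conditions alike, but a gene that is very high in either of them enters the list through that condition. In a list chosen on the salt stress libraries alone, 39 of 100 were called higher and 0 lower, and in one chosen on the CK libraries alone 16 were called higher and 6 lower. More genes were called higher than lower in each list, and the margin depended on how the list was made. An adjusted p under 0.05 was reached by 96 members, against 72.4% of all tested genes. Of these 96, 75 were higher and 21 lower in salt stress. Among all tested genes that reached it, 6641 were higher and 6442 lower. The CPM of the groups did not overlap for 97 members, against 74.0% of all tested genes. Neither count is particular to the members. In ranks 101 to 200, 94 of 100 gene models had an adjusted p under 0.05 and 95 did not overlap. Of those 94, 67 were higher and 27 lower in salt stress. The members' median biological coefficient of variation in edgeR was 2.92%, against 4.38% over all tested genes, most of which have far fewer counts. The median log2 fold change was 0.43 over the members, 0.31 over ranks 101 to 200 and -0.0032 over all tested genes.

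The share of genes called higher did not simply fall or increase with abundance. It was 40.0% for the 10 highest ranks, 42% for the first 50, 12% for ranks 51 to 100, 19% for ranks 101 to 200, 9.89% for ranks 101 to 1000, 4.75% for ranks 1001 to 5000 and 14.5% below that. It was thus highest among the first 50 ranks and lowest in the middle of the ranking. The ranks use the salt stress libraries too, so a gene that is higher in salt stress also ranks higher. For example, evm.model.39.25 stood at rank 25 here and at rank 437 in CK. The share at the top is therefore partly set by the ranking and is a description only. Log2 fold changes of the members ran between -1.41 and 3.58.

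**Figure D3:**
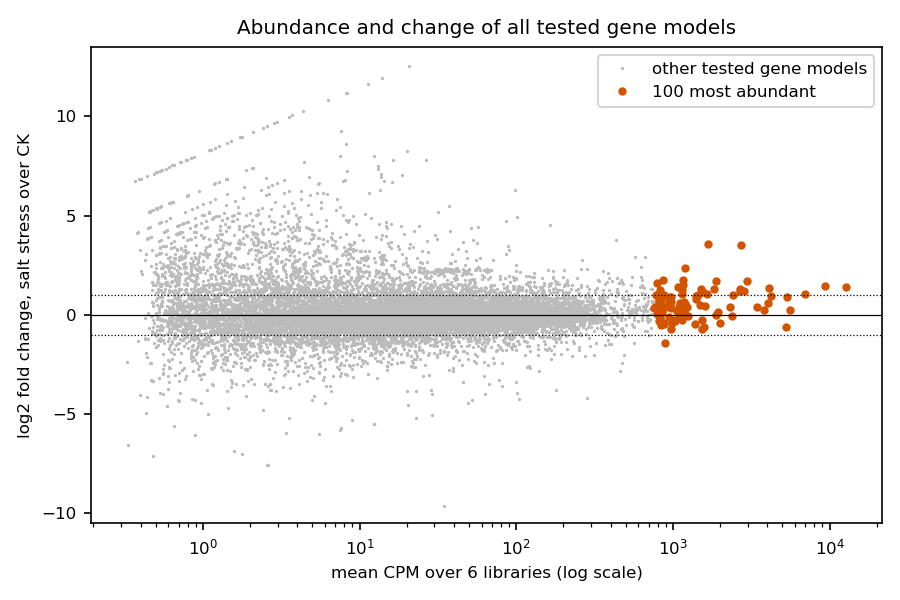
Log2 fold change of salt stress over CK (y axis) against mean CPM over the 6 libraries (x axis, log scale) for all tested gene models, with the 100 most abundant in orange and dotted lines at 1 and -1. Among the orange points 27 lie above the upper line and 1 below the lower line, and evm.model.64483.105 and evm.model.39.25 stand out near 3.5.

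The highest fold changes among members belonged to gene models that were not among the leaders in CK. For evm.model.39.25 the share was 0.304%, 0.292% and 0.278% in salt stress and 0.0297%, 0.0259% and 0.0269% in CK. It stood at rank 18 in salt stress and at rank 437 in CK, the lowest CK rank of any member. Its log2 fold change was 3.58 (standard error 0.050, edgeR adjusted p = 1.50e-16), an 11.98-fold difference. Next came evm.model.64483.105, with 0.465%, 0.463% and 0.474% in salt stress and 0.0439%, 0.0467% and 0.0466% in CK. It was 11.6-fold higher (log2 fold change 3.53, edgeR adjusted p = 7.12e-47) and stood at rank 8 in salt stress and rank 200 in CK. The third was evm.model.64427.63, at 0.188%, 0.184% and 0.188% in salt stress and 0.0427%, 0.0407% and 0.0409% in CK, with a log2 fold change of 2.35 (edgeR adjusted p = 3.10e-41). All salt stress libraries of these gene models lay several-fold above all CK libraries, and the spread within each group was small beside the difference. Such gene models owe their membership to the salt stress libraries.

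In the other direction, evm.model.30.51 was the only member called lower. Its share was 0.0453%, 0.0456% and 0.0450% in salt stress and 0.135%, 0.137% and 0.138% in CK. The groups were separated by nearly 3 times, and both were tight. The log2 fold change was -1.41 with a standard error of 0.029 (edgeR adjusted p = 1.18e-34), and the gene model stood at rank 212 in salt stress and rank 27 in CK. The other large losers fell by less than the fold threshold, with log2 fold changes of -0.71 for evm.model.5.305, -0.62 for evm.model.33.78 and -0.40 for evm.model.64474.103 and edgeR adjusted p-values of 3.23e-24, 2.88e-09 and 1.27e-16.

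Only 4 members had an adjusted p of 0.05 or more. Of the 20 highest-ranked members, evm.model.7.707 had the log2 fold change closest to 0, at -0.034 (standard error 0.028, edgeR adjusted p = 0.274). Its CPM was 2408, 2354 and 2314 in salt stress and 2481, 2392 and 2373 in CK, so that the groups overlapped. In share it was lower in salt stress, at 0.226%, 0.223% and 0.216% against 0.263%, 0.254% and 0.253% in CK. The remaining 3, named after their values were seen, were evm.model.5.366, evm.model.14.807 and evm.model.28.89, with log2 fold changes of -0.0072, -0.051 and 0.027 and edgeR adjusted p-values of 0.822, 0.113 and 0.402. With total counts alone all 4 were lower in salt stress, with log2 fold changes between -0.23 and -0.15, and the edgeR adjusted p of evm.model.7.707 was 9.999e-09.

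The make-up of the top differed between the conditions. Of the 100 gene models with the highest mean CPM in salt stress, 66 were also among the 100 highest in CK, which is 66% of each list. All of these 66 are members, as are 17 found in the salt stress list only and 17 found in the CK list only. Of the 27 members called higher, 11 were beyond rank 100 in CK. Within single libraries, between 81 and 84 members were among the library's own 100 most abundant gene models in salt stress, and between 81 and 83 in CK. Overlap of such lists between libraries of the same group was not counted. The limit lies in a dense part of the ranking, so some of the difference between the lists may sit at that limit.

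How strongly few gene models dominated a library was measured without the list. The effective number of genes, the exponential of the Shannon entropy of the counts, is the number of equally abundant genes that would spread the counts as evenly. It was 5249, 5319 and 5176 in the salt stress libraries and 6681, 6735 and 6724 in the CK libraries. The groups did not overlap (difference of means -1465, two-sided exact permutation test, p = 0.1, the smallest possible). The number of gene models that hold 25% of the counts was 164, 170 and 162 in salt stress, against 317, 324 and 323 in CK. For 50% of the counts it was 1255, 1274 and 1245 in salt stress and 1632, 1645 and 1641 in CK. The contrast was thus wider at the very top.

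**Figure D4:**
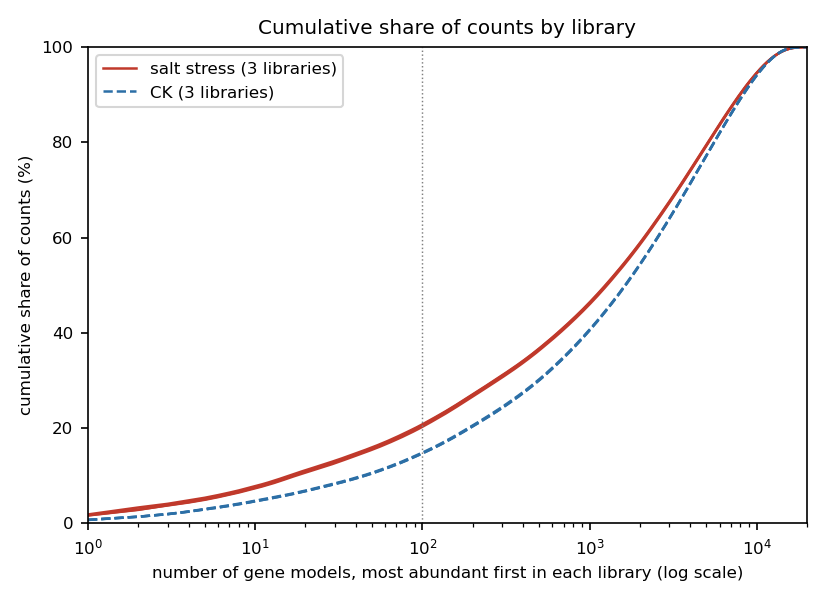
Cumulative share of counts (y axis, %) over gene models ordered by abundance within each library (x axis, log scale), with solid red lines for the 3 salt stress libraries and dashed blue lines for the 3 CK libraries. At the dotted line, 100 gene models, the salt stress lines are between 20.3% and 20.8% and the CK lines between 14.7% and 14.9%.

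The part of each gene model was read from the sum of squared shares, which is the probability that a pair of reads drawn at random comes from the same gene model. Per 10000 pairs it was 10.8, 10.6 and 12.0 in the salt stress libraries and 5.09, 4.96 and 4.96 in the CK libraries. Salt stress replicate 3 was the highest. Of the difference of means, 6.13 per 10000 pairs, 41.0% lay in evm.model.3.84 alone, 63.3% in the 2 gene models with the largest part and 72.1% in the 3 largest, which are also the 3 highest-ranked. The 10 largest held 93.0%. In the opposite direction, evm.model.12.115 took off -4.78% of the difference.

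When these leaders were left out and the shares computed anew, the salt stress libraries were still less even. The largest and the 27 called higher were picked from these same data for being higher in salt stress. A narrower gap without them therefore follows from the choice, and only the gap that remains is described. Without evm.model.3.84 the probability was 8.37 ± 0.369 per 10000 pairs in salt stress and 4.53 ± 0.063 in CK (SD, n = 3 each), a ratio of 1.85 in place of 2.23. Without the 3 largest it was 6.13 ± 0.121 in salt stress and 4.09 ± 0.0261 in CK, a ratio of 1.498. Without the 27 members called higher it was 4.78 ± 0.0802 in salt stress and 3.97 ± 0.0192 in CK, a ratio of 1.205. The effective number of genes responded less to single leaders. Without the 3 largest it was 5995 ± 41.1 in salt stress and 7042 ± 17.8 in CK, without the 27 members called higher 6754 ± 30.7 in salt stress and 7230 ± 12.3 in CK, and without all 100 members 8435 ± 19.5 in salt stress and 8766 ± 7.97 in CK (SD, n = 3 each). The difference without all members was -332 genes, against -1465 with them. The 100 members were picked as the most abundant in these same libraries, so this narrower gap is also partly set by the choice. The 27 members called higher held 9.67% ± 0.268 of the counts in salt stress and 4.05% ± 0.0893 in CK, and the other 73 held 10.6% ± 0.101 in salt stress and 10.2% ± 0.0167 in CK (SD, n = 3 each). That the 27 held more in salt stress follows from the call.

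Members had consecutive numbers on a scaffold in 4 pairs, formed by 6 gene models in 2 runs of 3. On scaffold 3, evm.model.3.83, evm.model.3.84 and evm.model.3.85 follow each other in number. The share of evm.model.3.83 was 0.639%, 0.612% and 0.714% in salt stress and 0.403%, 0.385% and 0.393% in CK, and that of evm.model.3.85 was 0.264%, 0.253% and 0.303% in salt stress and 0.0960%, 0.0925% and 0.0909% in CK. All 3 were higher in salt stress, and in all 3 replicate 3 was the highest salt stress library. Their log2 fold changes were 0.91, 1.43 and 1.73 in numbered order (edgeR adjusted p = 2.05e-05, 1.55e-11 and 2.23e-05). Together they held 2.67% ± 0.193 of all counts in salt stress and 1.22% ± 0.0233 in CK (SD, n = 3 each). The gene models on either side were much less abundant and did not go the same way. The CPM of evm.model.3.82 was 135 ± 2.02 in salt stress and 158 ± 2.17 in CK, and that of evm.model.3.86 was 18.2 ± 3.10 in salt stress and 33.3 ± 0.445 in CK (SD, n = 3 each).

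On scaffold 39, evm.model.39.25, evm.model.39.26 and evm.model.39.27 form the other run. The share of evm.model.39.26 was 0.359%, 0.347% and 0.356% in salt stress and 0.175%, 0.169% and 0.170% in CK, with a log2 fold change of 1.23 (edgeR adjusted p = 7.10e-33). All 3 were higher in salt stress but by very different amounts, with log2 fold changes of 3.58, 1.23 and 0.25 in numbered order. Their order in CK was the reverse of the order of their changes, with 3100 ± 126, 3769 ± 81 and 6085 ± 173 CPM in salt stress and 259 ± 18.9, 1610 ± 31.5 and 5131 ± 83.1 CPM in CK for evm.model.39.25, evm.model.39.26 and evm.model.39.27 (SD, n = 3 each). In salt stress they were thus within about 2 times of each other. The settings for reads that match several places are not named, so if neighbours are near-identical copies their counts could have been divided between them. This was not tested.

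**Figure D5:**
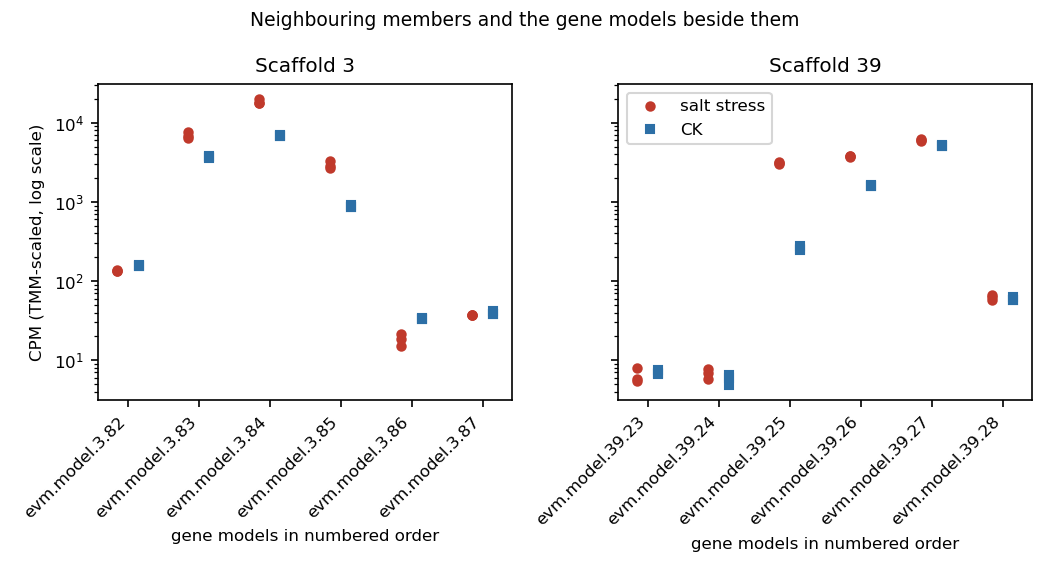
CPM (y axis, log scale) in each library for the runs of neighbouring members on scaffold 3 (left) and scaffold 39 (right) and the gene models numbered beside them, with red circles for salt stress and blue squares for CK. The members stand far above the gene models beside them, and the distance between circles and squares on scaffold 39 shrinks between evm.model.39.25 and evm.model.39.27.

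With the 6 members of these runs included, 15 members had another member within 10 numbers on the same scaffold. The rest of the 15 were close but not consecutive in number. Such closeness was not counted for other gene models, so this count has no background. The numbering has gaps. There is no evm.model.12.108 in the counts, so evm.model.12.107 and evm.model.12.109 follow each other there. They did not share a direction in every case. On scaffold 12, picked after the values were seen, evm.model.12.107 had a log2 fold change of 0.82, evm.model.12.109 of -0.27 and evm.model.12.115 of -0.59 (edgeR adjusted p = 8.75e-26, 1.13e-10 and 1.02e-22). On scaffold 64427, evm.model.64427.63 and evm.model.64427.68 were both called higher.

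Replicates of the members were close. The median coefficient of variation of CPM within a group was 2.69% in salt stress and 1.69% in CK over the members, against 6.09% in salt stress and 5.14% in CK over all tested genes, most of which have far fewer counts. Ranks 101 to 200 were as close, at 2.32% in salt stress and 1.94% in CK. The coefficient of variation exceeded 10% for 7 members in salt stress and for 1 in CK. The widest in CK was evm.model.43.3, chosen for this spread, at 647, 796 and 732 CPM in salt stress and 877, 1134 and 947 CPM in CK, which was still separated between the groups (log2 fold change -0.44, edgeR adjusted p = 0.0399). The library that stood apart most often was salt stress replicate 3. In salt stress replicate 3, 7 members deviated by more than 0.2 on the log2 scale from the mean of the other salt stress libraries, 6 of them upwards, against 2 members in replicate 1 and 3 in replicate 2. The members that deviated most were evm.model.78.75, at 2025, 1887 and 2544 CPM, and evm.model.95.132, at 1008, 980 and 1261 CPM, both chosen after their values were seen. With evm.model.3.83, evm.model.3.85, evm.model.12.41 and evm.model.64427.68 they make up the 6 that were higher in replicate 3, while evm.model.64392.8 was the 1 that was lower. Without salt stress replicate 3, 26 members were called higher and the share of the members was 5.89 percentage points above CK.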

How the data were processed

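Leaf RNA of 3 salt stress and 3 CK samples was sequenced on an Illumina NovaSeq platform. Per the submitters' processing notes and the methods of the paper, FastQC, HISAT2 (against the *L. littorea* genome) and featureCounts were used. The authors deposited raw counts per gene model without normalization, 1 column per library, and 0 columns were left unassigned. How strand, paired ends and multiply placed reads were handled is not stated in what was read for this work.

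From the deposited counts, edgeR 4.0.16 in R 4.3.3 was run with filterByExpr (minimum count 10), TMM, a robust quasi-likelihood fit on condition and p-values adjusted by Benjamini-Hochberg across tested genes. Thresholds followed the methods of the paper. Standard errors were derived from the log2 fold change and its F statistic. Shares are raw counts over the library total. DESeq2 1.42.0 was an alternative. The fits were tested on simulated data with known changes in a small part of the genes, in random directions. In the real data 72.4% of tested genes had an adjusted p under 0.05. The simulation therefore does not show how the scaling behaves when so many genes change. Libraries of a group differed by more than counting noise (chi-square of 1.66 to 3.88 per degree of freedom, the highest for pairs with salt stress replicate 3).

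The members and lists were chosen with earlier results of these data known. Named are the 10 highest-ranked members, the 5 largest gains and 5 largest losses of share, the 3 highest and lowest log2 fold changes past the thresholds, the member closest to 0 among the 20 highest ranks, ranks 99 to 102, and neighbouring pairs. Other gene models were named after their values were seen.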

Additional observations from a re-analysis of the deposited data

How the results depend on the processing

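The 27 members called higher and the 1 called lower were also 27 and 1 in DESeq2, with size factors by median of ratios, with TMM factors computed without the members, with a mean count of at least 10 and with the replicate number as a block. The called-higher count was 24 without the low-count filter, 20 with total counts alone and 24 to 28 when any library was dropped. Members with an adjusted p under 0.05 were 96, the same with the replicate block, 89 with total counts alone and 92 to 96 when any library was dropped. Same-numbered libraries did not deviate together over all tested genes (correlations between -0.0236 and 0.0351). Over the members these correlations were 0.459, 0.132 and -0.0955 for replicates 1, 2 and 3. For libraries of different number they lay between -0.562 and 0.285. Whether the numbers pair the samples cannot be told from these values.

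Other list sizes and origins moved the counts by construction. Of 50 genes, 21 were called higher, 0 lower and 48 had an adjusted p under 0.05. Of 200 genes the numbers were 46, 6 and 190. A list chosen on the salt stress libraries alone gave 39 higher and 0 lower, and one chosen on the CK libraries alone gave 16 and 6. The difference in share was 7.25 percentage points for the salt stress list and 3.73 for the CK list, 5.82 with each library's own 100 most abundant genes and 5.89 to 6.12 leaving out single libraries. The difference in the effective number of genes lay between -1501 and -1429 in those runs, where the exact test cannot go below p = 0.2.

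Of 312 log2 fold changes computed for the 24 named genes under the alternatives, 307 kept their direction and their side of both thresholds, 3 fell below the fold threshold, all of them of evm.model.64392.8, and 0 turned direction. With total counts alone, 2 crossed the adjusted p threshold without a change of call. These were evm.model.30.71, with an edgeR adjusted p of 0.0552, and evm.model.7.707, with 9.999e-09.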
